A study of Homo sapiens with 26 samples.

Results

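The cytosolic translation elongation factors of Huh7 cells were followed through ribosome profiling of the compound PF-06446846, which stalls ribosomes on a small set of nascent chains. Huh7 cells derive from a human liver cancer. The genes are EEF1A1, EEF1B2, EEF1D, EEF1G, EEF2 and EIF5A. They were chosen by name, and each was found through the GENCODE symbol of its counted transcript. All 6 were present among the 12325 transcripts counted in every library, of which 11270 carried a GENCODE 44 symbol. Study 1 held 18 ribo-seq libraries, with 3 replicates each of vehicle (DMSO), 0.3 μM and 1.5 μM PF-06446846 after 10 min and after 60 min. Study 2 held 8 libraries, with 2 ribo-seq and 2 mRNA-seq replicates each of vehicle and 1.5 μM PF-06446846 after 60 min, both assays having been made from the same samples. Study 1 replicates are numbered 1 to 3 and study 2 replicates 4 and 5. All cells belonged to 1 unmodified line in culture and met cycloheximide when they were harvested. The study calls the replicates of study 1 biological replicates. The labels do not say how they were grown, so the p-values measure the spread between these libraries, which may in part be technical.

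Elongation factors carry the ribosome from one codon to the next. eEF1A (from EEF1A1) is the GTPase that brings aminoacyl-tRNA to the A-site. The eEF1B complex recharges it with GTP: EEF1B2 and EEF1D encode its nucleotide exchange subunits and EEF1G the subunit that holds the complex together. eEF2 is the GTPase that moves tRNAs and mRNA after each peptide bond and carries diphthamide, a modified histidine. eIF5A, first named as an initiation factor, helps peptide bonds form at slow sequences and carries hypusine, a modified lysine made from spermidine. Several of these mRNAs start with a 5′ terminal oligopyrimidine (TOP) tract, a feature they share with the mRNAs of ribosomal proteins.

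The genes lie on 6 chromosomes of GRCh38, and their coding sequences (CDS) differ in length. The counted transcript of EEF1A1 spans chr6:73517515-73521840 on the minus strand and has 463 codons with its stop. EEF1B2 (226 codons) lies at chr2:206159594-206162927 on the plus strand, EEF1D (258 codons) at chr8:143579728-143597425 on the minus strand, and EEF1G (438 codons) at chr11:62559596-62573891 on the minus strand. EEF2, the longest at 859 codons, lies at chr19:3976056-3985463 on the minus strand, and EIF5A, the shortest at 155 codons, at chr17:7307974-7312455 on the plus strand. Reads with a few equal best alignments were kept by the authors, so copies matter. EEF1D had the same counts as an unnamed transcript (ENST00000632675) at all 214 codons compared, in all 26 libraries, so its values cannot be separated from those of that copy. EIF5A had equal counts with its intronless copy EIF5AL1 at 110 of 155 codons, which held 71.7% of the EIF5A reads. The CDS of both differ at 5 bases, and EIF5AL1 held 0.759 to 0.832 times the EIF5A reads, so its values cannot be separated from those of EIF5A. The paralog EIF5A2 held 0.00824 to 0.0167 times the EIF5A reads. No transcript shared its counts with EEF1A1, EEF1B2, EEF1G or EEF2.

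Total CDS reads ranged from 6414227 to 22224137 in the 18 ribo-seq libraries of study 1, from 8888459 to 13736874 in the 4 of study 2 and from 15227654 to 22036358 in the 4 mRNA-seq libraries. Of 10 hepatocyte markers, 9 (among them AFP, APOB and HNF4A, while ALB was not analysed here) summed to between 19961 and 31758 CPM (counts scaled to the library's CDS reads). Of 7 markers of blood, endothelial and stromal cells only the endothelial PECAM1 was analysed, at 11.5 to 26.7 CPM. Hepatocyte markers were thus present in every library.

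Every gene had a few codons where vehicle footprints piled up. The stretches of CDS given here are examples from 5 of the genes, whose values are described with the codon profiles, and those of EEF1D are not printed. Each runs 5′ to 3′ from 10 codons before to 4 codons after the maximum, and the capitals mark the codon in the ribosomal P-site, the position that holds the peptidyl-tRNA. The bases are those of the GENCODE 44 transcripts.
EEF1A1 codon 260, exon 6, P-site codon at chr6:73518603-73518605 (minus): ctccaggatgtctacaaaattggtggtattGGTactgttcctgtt
EEF1A1 codon 69, exon 3, chr6:73519454-73519456 (minus): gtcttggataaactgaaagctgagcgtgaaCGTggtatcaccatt
EEF1B2 codon 85, exon 4, chr2:206161395-206161397 (plus): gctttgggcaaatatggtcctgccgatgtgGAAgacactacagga
EEF1B2 codon 153, exon 6, chr2:206162548-206162550 (plus): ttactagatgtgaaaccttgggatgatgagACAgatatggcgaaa
EEF1G codon 154, exon 5, chr11:62571025-62571027 (minus): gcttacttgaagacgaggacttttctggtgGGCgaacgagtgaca
EEF1G codon 314, exon 8, chr11:62560370-62560372 (minus): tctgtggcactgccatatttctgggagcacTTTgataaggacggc
EEF2 codon 637, exon 12, chr19:3977975-3977977 (minus): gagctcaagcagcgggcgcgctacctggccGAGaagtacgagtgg
EEF2 codon 822, exon 15, chr19:3976665-3976667 (minus): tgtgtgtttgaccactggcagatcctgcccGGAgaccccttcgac
EIF5A codon 54, exon 2, chr17:7309795-7309797 (plus): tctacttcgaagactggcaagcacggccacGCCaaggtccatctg
One more stretch, from EEF2, stood out for the opposite reason. The capitals mark codons 715 to 720, which begin with the diphthamide codon and held few footprints.
EEF2 codons 715 to 720, exon 13, chr19:3977518-3977535 (minus): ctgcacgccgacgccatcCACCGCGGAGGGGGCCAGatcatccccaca

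The first question was how much of the cells' translation goes into these factors. Together they took 2.00% ± 0.136 (SD, n = 22) of all CDS footprints, between 1.71% and 2.25% in single libraries. Their mRNAs took between 1.45% and 1.53% of the CDS reads of the mRNA-seq libraries. Levels are given as RPKM, that is CPM divided by the CDS length in kb, so that genes of unequal length can be compared. For levels and TE the CDS totals were first multiplied by TMM factors (edgeR's scaling to the bulk of transcripts), 0.942 to 1.06 in the 22 ribo-seq libraries. Each level is relative to the other transcripts of its library. In bulk samples a lower share of cells and less RNA in each cell cannot be told apart.

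EEF1A1 was the highest of the group in every library. In the 8 vehicle ribo-seq libraries its level ran from 7332 over a median of 8656 to 10503, and it ranked between 4th and 8th of all transcripts. EIF5A followed at 1554, 1983 and 2336 (lowest, median and highest), at ranks 90 to 150. EEF2 stood at 1108, 1513 and 1811, at ranks 142 to 219. These 3 factors, which each touch the ribosome itself, had the most footprints per kb of CDS. Per gene the order differed: EEF1G took 0.128% to 0.145% of CDS footprints in the vehicle libraries and the shorter EIF5A 0.0742% to 0.105%.

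The eEF1B subunits were lower and closer together. EEF1G stood at 938, 1019 and 1079, EEF1B2 at 885, 925 and 1341, and EEF1D at 444, 573 and 834. Ranks ran from 197 to 269 for EEF1B2, 222 to 256 for EEF1G and 304 to 473 for EEF1D. The narrow range of EEF1G and the wide range of EEF1D are visible in the plot of levels by library.

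**Figure D1:**
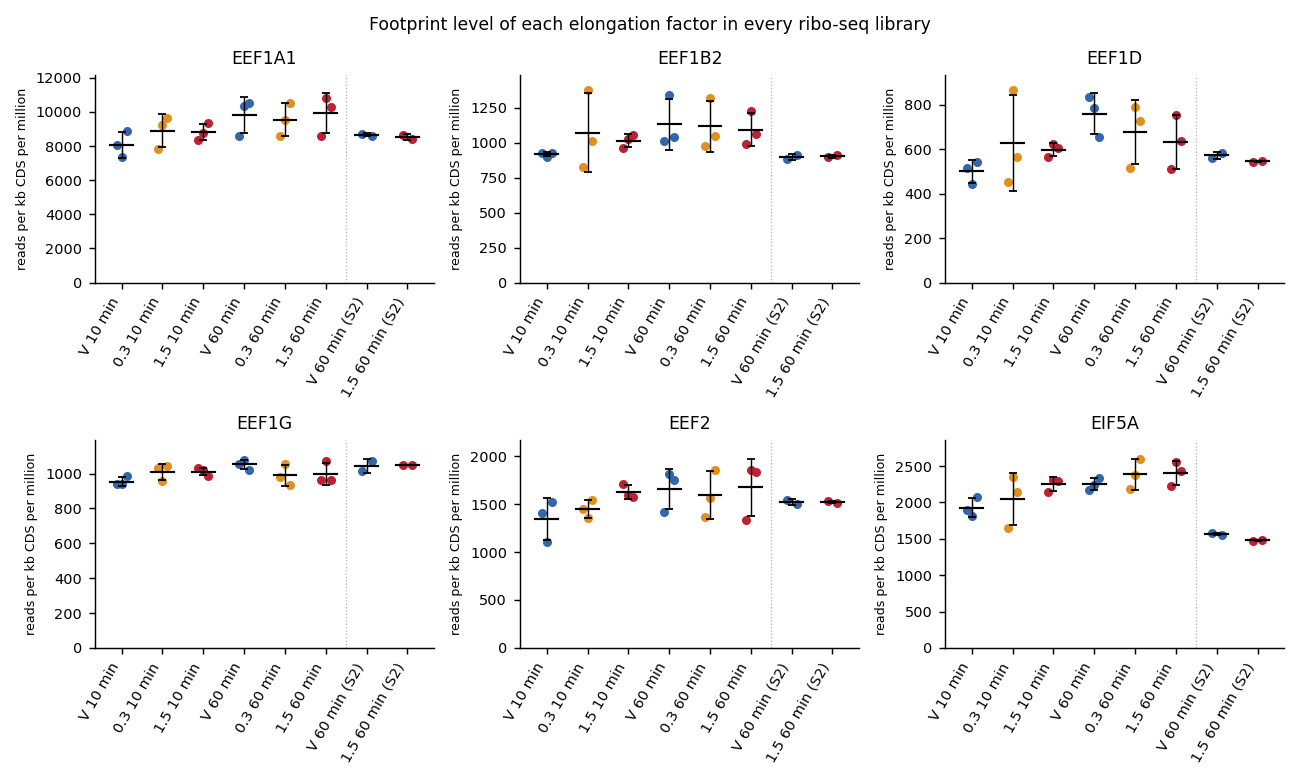
Footprint level (RPKM over the CDS, linear axis from 0) of each elongation factor in the 22 ribo-seq libraries, with 1 panel per gene. Points are libraries, coloured blue for vehicle (V), orange for 0.3 μM and red for 1.5 μM, horizontal bars are group means and error bars are SD (n = 3 in study 1, n = 2 in study 2, marked S2 and set off by a dotted line); EIF5A sat between 1470.2 and 1578 in study 2 and between 1650.4 and 2604 in study 1.

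Neighbours in this order were compared within each vehicle library by a two-sided exact sign-flip permutation test, adjusted over the 5 pairs. The order was read from these same libraries, so the test describes the size of each step against its spread and is not independent evidence of the order. EEF1A1 exceeded EIF5A 4.55-fold on average (8 of 8 libraries, exact permutation p = 0.0078, adjusted p = 0.00977). The same p-values, the smallest that 8 libraries allow, held for EIF5A over EEF2 (1.30-fold), EEF2 over EEF1G (1.47-fold) and EEF1B2 over EEF1D (1.63-fold), each in 8 of 8 libraries. EEF1G and EEF1B2 did not differ beyond their spread, at a ratio of 1.03 (0.804 to 1.17 in single libraries, higher in 6 of 8, exact permutation adjusted p = 0.484). This rested on 1 library: without 60 min vehicle replicate 2 the log2 ratio went from 0.04 to 0.09 and passed (exact permutation adjusted p = 0.0469), while in the 60 min vehicle libraries of study 1 alone it was −0.09.

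The studies did not give EIF5A the same place. In vehicle cells after 60 min its level was 2249 ± 84.8 (n = 3) in study 1 and 1566 ± 16.7 (n = 2) in study 2. EEF2 was at 1661 ± 211 and 1520 ± 30.0 in the same libraries. Within study 2 the log2 ratio of EIF5A to EEF2 was 0.04, against 0.38 over all 8 vehicle libraries, so the step between them rested on study 1. The study difference of EIF5A was not tested, since study and library preparation cannot be told apart.

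Footprints per mRNA were the next measure. Translational efficiency (TE) was the footprint level divided by the mRNA level of the same sample, in the 4 samples of study 2. Across 10893 transcripts the quartiles of TE in vehicle cells were 0.616, 1.04 and 1.74. EEF1A1 had a TE of 1.73 ± 0.0432 (SD, n = 2), higher than between 74.9% and 77.7% of transcripts in the 4 samples. EEF2 stood at 1.39 ± 0.0194, EEF1B2 at 1.30 ± 0.134, EIF5A at 1.28 ± 0.107 and EEF1D at 1.22 ± 0.116. Between 53.9% and 67.5% of transcripts lay below these 4. By plain CDS totals the median of all transcripts was 0.17 lower on the log2 scale, and every TE moved alike. EEF1G, the scaffold of eEF1B, was the lowest at 0.777 ± 0.0283, above only 33.1% to 37.6% of transcripts.

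EEF1G thus had the most mRNA of the eEF1B subunits and a lower yield of footprints from it. Its mRNA level in vehicle cells was 1476 and 1473 in replicates 4 and 5, while EEF1B2 had 808 and 717 and EEF1D 545 and 492. The mRNA level of EEF1G was 1.83 to 2.05 times that of EEF1B2 in the 4 mRNA-seq libraries. Its footprint level was 1.15 to 1.17 times that of EEF1B2 in the 4 ribo-seq libraries of study 2. These ranges do not overlap, and the TE of EEF1G was 0.572 to 0.628 times that of EEF1B2 in the 4 samples.

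The span from the highest eEF1B subunit (EEF1G) to the lowest (EEF1D) was smaller in footprints than in mRNA. EEF1D and EEF1B2 were not nearer. EEF1D stood at 0.659 to 0.730 times EEF1B2 in mRNA and 0.601 to 0.639 times in footprints of study 2. Over all 22 ribo-seq libraries this ratio ran from 0.493 to 0.826. The highest subunit exceeded the lowest 2.58- to 2.99-fold in mRNA-seq and 1.81- to 1.93-fold in ribo-seq of the same samples. Over all 22 ribo-seq libraries that fold ran from 1.27 to 2.29. EEF1A1, the substrate of the complex, went the other way: it exceeded EEF1B2 6.99- to 7.46-fold in mRNA and 9.21- to 9.85-fold in footprints of study 2. Over all 22 ribo-seq libraries that fold ran from 6.72 to 10.1, a range that covers the mRNA values. No test was made of these ratios.

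**Figure D2:**
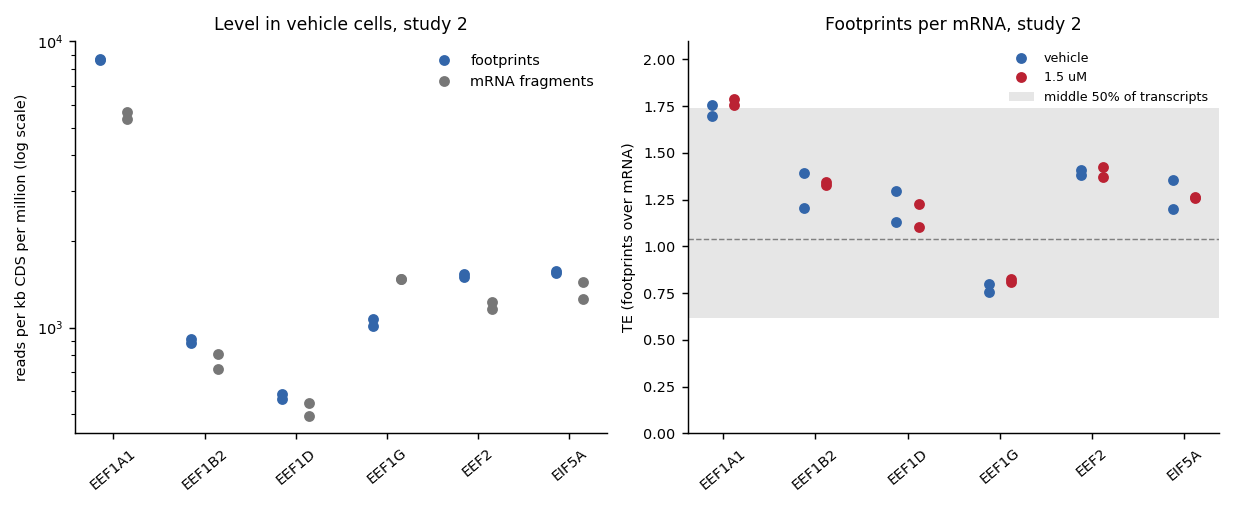
Left, level (RPKM over the CDS, log axis) of each elongation factor in the 2 vehicle ribo-seq libraries (blue) and the 2 vehicle mRNA-seq libraries (grey) of study 2. Right, footprints per mRNA (TE, linear axis from 0) in vehicle (blue) and 1.5 μM (red) samples, n = 2 each, over a grey band from the lower to the upper quartile of all transcripts (0.616 to 1.74) with a dashed line at their median; EEF1G is the only factor below that line, at 0.757 to 0.828.

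TE of related genes gives the scale. The 75 cytosolic ribosomal proteins had a median TE of 1.02 and 10 other TOP mRNAs, among them TPT1, NPM1 and EIF4B, one of 2.64. The 5 mitochondrial elongation factors had a median of 1.33, from 0.846 to 4.00. The other cytosolic elongation factors and eEF1 partners (6 found) had a median of 0.970, and the enzymes that modify eEF1A, eEF2 or eIF5A (14 with a TE) one of 0.938.

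The position of footprints within each CDS was then read codon by codon. Density is the reads at a codon divided by the mean over the CDS, leaving out the first 10 and last 15 codons when maxima were sought. Footprints were less even than mRNA fragments: their coefficient of variation over codons was between 0.725 (EEF1A1) and 1.03 (EEF1D), against 0.417 to 0.512 in mRNA-seq. The Spearman correlation of the profiles was 0.881 to 0.943 between the 2 vehicle replicates of study 2 for the 6 genes, and 0.0265 to 0.300 between ribo-seq and mRNA-seq. Between the studies it was 0.442 to 0.715. These correlations run over codons of 1 gene, which are not independent, and share the base composition of that gene.

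The strongest maxima lay in EEF2, EEF1D and EEF1G. Codon 637 of EEF2 had a density of 4.08 to 10.2 in the 8 vehicle libraries (median 6.25), at 180 to 660 reads, and 0.292 to 0.634 in mRNA-seq. Codon 154 of EEF1G had 3.06 to 9.46 (median 6.01) and codon 314 had 2.64 to 11.4 (median 6.11), both with mRNA densities near the gene's mean. Codon 183 of EEF1D stood at 4.94 to 7.81 (median 6.70), and codon 185 beside it at 2.72 to 12.6 (median 4.74). In EEF1A1 the 3 highest codons, 260, 69 and 198, had lower medians of 4.76, 4.53 and 3.62. Each of these codons was above the highest mRNA-seq value in every vehicle library.

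Not every maximum was general. Codon 822 of EEF2 had a mean of 10.8 ± 0.859 (n = 2) in the vehicle libraries of study 2. In the 60 min vehicle libraries of study 1 it was 1.48 ± 0.0983 (n = 3), so its place among the maxima came from study 2 and from the 10 min libraries (4.98 ± 2.58, n = 3). Chosen on the 3 vehicle libraries of 60 min in study 1, the list of 3 codons a gene shared 14 of its 18 codons with the list from all 8. Chosen on the 3 of 10 min it shared 12, and chosen on the 2 of study 2 it shared 10. Each of these lists used part of the same 8 libraries, so some sharing is built in.

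**Figure D3:**
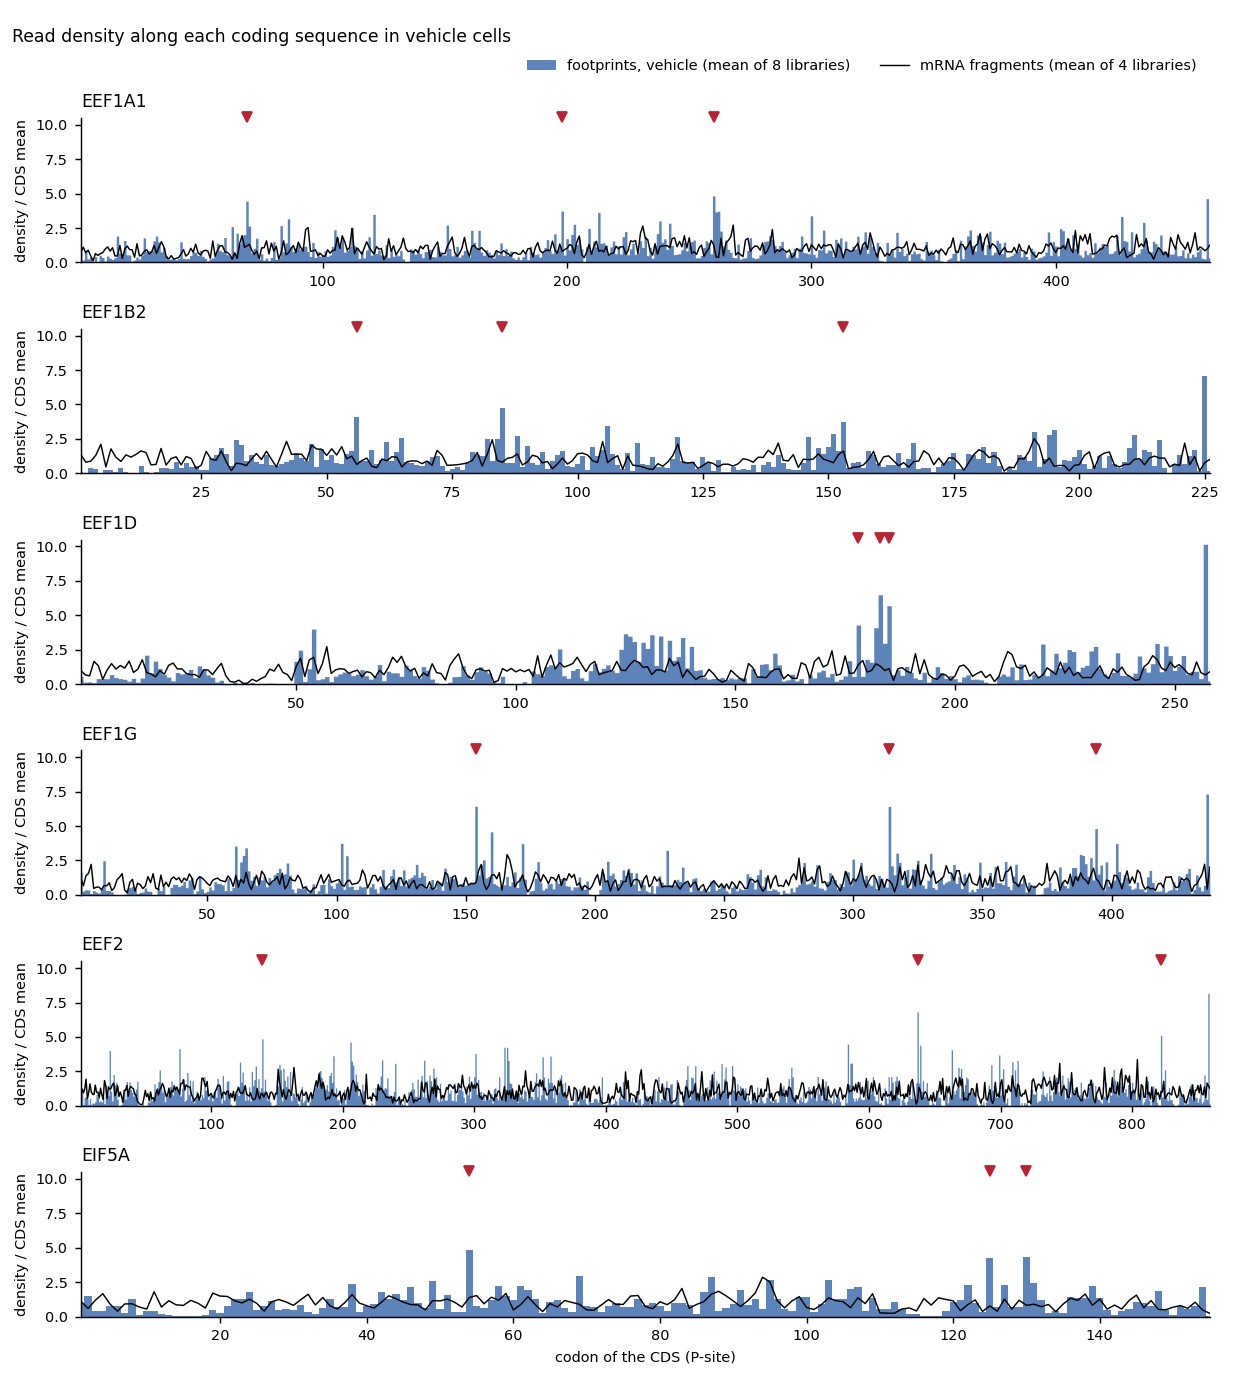
Read density at each codon (reads divided by the mean of the CDS, linear axis) along the 6 coding sequences, with the P-site codon on the x axis. Blue bars are the mean of the 8 vehicle ribo-seq libraries, black lines the mean of the 4 mRNA-seq libraries, and red triangles mark the 3 highest codons of each gene outside its ends, such as codon 637 of EEF2 (median 6.25) and codon 54 of EIF5A (median 4.34).

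EEF1B2 and EEF1D had some high codons at matching places. Their C-terminal parts, which exchange the nucleotide of eEF1A, aligned over 142 codons with 79.6% identical residues. Over 127 of these codons the vehicle densities of both genes had a Spearman correlation of 0.447 and a Pearson correlation of 0.488, as a description over codons. Codon 153 of EEF1B2 (2.74 to 6.24, median 3.32) and codon 185 of EEF1D both lay 73 codons before the stop, and ranked 3 and 2 in their genes. Codon 151 of EEF1B2 (1.93 to 3.99, median 2.76) and codon 183 of EEF1D both lay 75 codons before it, but ranked 7 and 1. Codons 146 (1.22 to 3.59, median 3.03) and 178 (1.00 to 7.85, median 4.44), 80 before the stop, ranked 11 and 3. The first pair is thus the only one among the 3 highest codons of both genes. The aligned stretches differed at 6, 3 and 5 of 28 bases, and no codon had equal counts in both genes in all 26 libraries. Codon 85 of EEF1B2, its highest at a median of 4.86, had no such partner: the aligned codon 115 of EEF1D stood at 0.0579 to 1.25.

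Codons at and near the modified residues held both high and low values. In EIF5A the highest codon, 54, lay 4 codons after the hypusine codon at 50. Its density was 2.17 to 8.36 in the vehicle libraries (median 4.34), against 1.21 to 1.63 in mRNA-seq. Of the codons between them, 51 had a median of 1.44, while 52 and 53 had 0.317 and 0.327. The hypusine codon itself had a median of 0.510, and codon 49 just before it one of 2.52 (1.32 to 4.32). In EEF2 the 6 codons 715 to 720 had a mean footprint density of 0.0245 to 0.359 (median 0.118) and an mRNA density of 0.685 to 1.03. Codon 714, just before, stood at 0.547 to 1.73 and codon 713 at 1.84 to 5.17. These stretches were picked after their values were seen and were not tested.

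EEF2 had 6 such stretches of at least 4 codons with low footprints and ordinary mRNA density. EEF1G had 3 in 413, EEF1D 2 in 233, EIF5A 2 in 130, EEF1A1 1 in 438 and EEF1B2 none in 201. These counts are not adjusted for length. The one in EIF5A at codons 12 to 18 had a mean density of 0.0254 to 0.161 in vehicle footprints and 0.826 to 0.981 in mRNA. It lies in the early part of the CDS, where the paper reports fewer reads with and without the compound. The stretches of EEF1G at codons 14 to 17 and 27 to 30 lie there too.

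The compound was compared with vehicle next, starting with 1.5 μM after 10 min. For EEF1D the 3 vehicle libraries read 515, 444 and 545 and the 3 treated ones 565, 623 and 607. For EIF5A they read 1892, 1817 and 2073 against 2139, 2313 and 2295. For EEF2 the vehicle values of 1406, 1108 and 1527 lay below the treated values of 1706, 1591 and 1572. In these genes every treated library was above every vehicle library, though the gaps were small.

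EEF1B2 (926, 900 and 924 in vehicle, 962, 1024 and 1054 at 1.5 μM) and EEF1G (943, 938 and 984 against 1029.9, 1018 and 989) also did not overlap. EEF1A1 did, at 8067, 7332 and 8852 against 8362, 8779 and 9329. Levels above every vehicle library were thus seen in 5 of 6 genes. Over 9706 transcripts 11.0% were above and 12.2% were below every vehicle library at 10 min. Scaled by plain CDS totals EEF1G overlapped, and 4 of 6 genes were above, against 7.98% of transcripts.

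By edgeR's quasi-likelihood test at a false discovery rate (FDR) of 0.1, none of the 6 was called in this comparison, in which 0.851% of 11045 transcripts were (94). The log2 change was 0.26 for EEF1D (95% interval 0.03 to 0.48, FDR 0.235), 0.27 for EEF2 (0.01 to 0.54, FDR 0.275) and 0.22 for EIF5A (0.01 to 0.44, FDR 0.261). It was 0.15 for EEF1B2 (−0.05 to 0.35), 0.13 for EEF1A1 (−0.11 to 0.37) and 0.09 for EEF1G (−0.12 to 0.29). Their median was 0.19, against 0.01 over all transcripts. The values rested on single vehicle libraries. Without vehicle replicate 2, the log2 change of EEF2 was 0.15, that of EEF1D 0.18 and that of EEF1A1 0.06, with no call. Without vehicle replicate 3, the tests called EEF1D (0.32, edgeR FDR 0.0758), EEF2 (0.37, FDR 0.0601) and EIF5A (0.28, FDR 0.0908), in a fit that called 1656 transcripts.

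After 60 min at 1.5 μM in study 1 the groups overlapped for all 6 genes, against a background of 3.25% of transcripts above and 3.25% below (3.55% above by plain CDS totals). EEF1D, for example, read 834, 786 and 657 in vehicle and 510.5, 753 and 637 at 1.5 μM. EEF1A1 read 8572, 10325 and 10503 against 8601, 10833 and 10304. The log2 changes ran from −0.26 for EEF1D (95% interval −0.59 to 0.07) to 0.10 for EIF5A (−0.15 to 0.34). None of the 6 was called by edgeR, and 0.0726% of transcripts were (8).

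The replicate numbers were taken to pair these libraries, from a correlation of their counts and not from any label. The pairs were therefore read as well. EEF1D and EEF1G were lower in 3 of 3 pairs and EIF5A was higher in 3 of 3, by both scalings. Over all transcripts 15.1% were higher and 14.5% lower in every pair. With the replicate number as a block, the log2 change was −0.27 for EEF1D (95% interval −0.50 to −0.04, edgeR FDR 0.509), −0.08 for EEF1G (−0.23 to 0.07) and 0.09 for EIF5A (−0.06 to 0.24). No member was called in this fit, which called 51 transcripts.

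At 0.3 μM none of the 6 was called after 10 min or after 60 min, and in each comparison 0.0% of transcripts were, by edgeR and by DESeq2 alike. An unadjusted edgeR p under 0.05 was reached by 104 and 97 transcripts. The log2 changes lay between 0.09 and 0.33 after 10 min and between −0.17 and 0.08 after 60 min. By the same rule the replicate numbers were taken to pair these libraries too. After 10 min EEF1G and EEF2 were higher in 3 of 3 pairs (9.16% of transcripts were higher and 9.72% lower in every pair), but by plain CDS totals no member was (6.82% and 12.1%). After 60 min EIF5A was higher and EEF1G lower in 3 of 3 pairs by both scalings, against 12.1% and 11.3%. No member was called with the replicate number as a block. After 10 min 1 library stood out, replicate 2 of 0.3 μM, with EEF1D at 868 against 451 and 567 in the others, and EEF1B2 at 1377 against 827 and 1014.

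An interaction term tested the effect of 1.5 μM at 60 min against that at 10 min. No transcript passed in edgeR (0.0%) or in DESeq2, and 506 had an unadjusted edgeR p under 0.05. EEF1D was one of those, with a log2 difference of effects of −0.53 (95% interval −0.93 to −0.12, edgeR FDR 0.856). The other members lay between −0.26 and −0.12, and their intervals included 0.

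Vehicle cells were also compared between the time points. From 10 to 60 min without compound, EEF1D went from 444 to 545 at 10 min to 657 to 834 at 60 min. Its log2 change was 0.60 (95% interval 0.32 to 0.88, edgeR FDR 0.710). The DESeq2 Wald test called it (0.61, FDR 0.00318). EEF1A1, EEF1B2, EEF2 and EIF5A had log2 changes of 0.22 to 0.30 and EEF1G 0.14, with a median over the 6 of 0.29 against −0.00 over all transcripts. Levels at 60 min were above every 10 min library in 4 of 6 genes (EEF1B2, EEF1D, EEF1G and EIF5A), against a background of 6.24% above and 6.28% below. Scaled by plain CDS totals EEF1G overlapped, and 3 of 6 were above, against 2.24% of transcripts. In edgeR 0.0% of transcripts were called (769 had an unadjusted p under 0.05), and in DESeq2 43 were. From 10 to 60 min at 0.3 μM, where edgeR called 0.00895% of transcripts, and at 1.5 μM, where it called 0.0182%, no member was called. Over time at 0.3 μM the numbers were also taken to pair the libraries. There EEF1A1 and EIF5A were higher in 3 of 3 pairs (15.2% of transcripts higher and 13.0% lower). By plain CDS totals no member was (7.66% and 23.1%). These comparisons share libraries with the tests of the compound at each time.

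**Figure D4:**
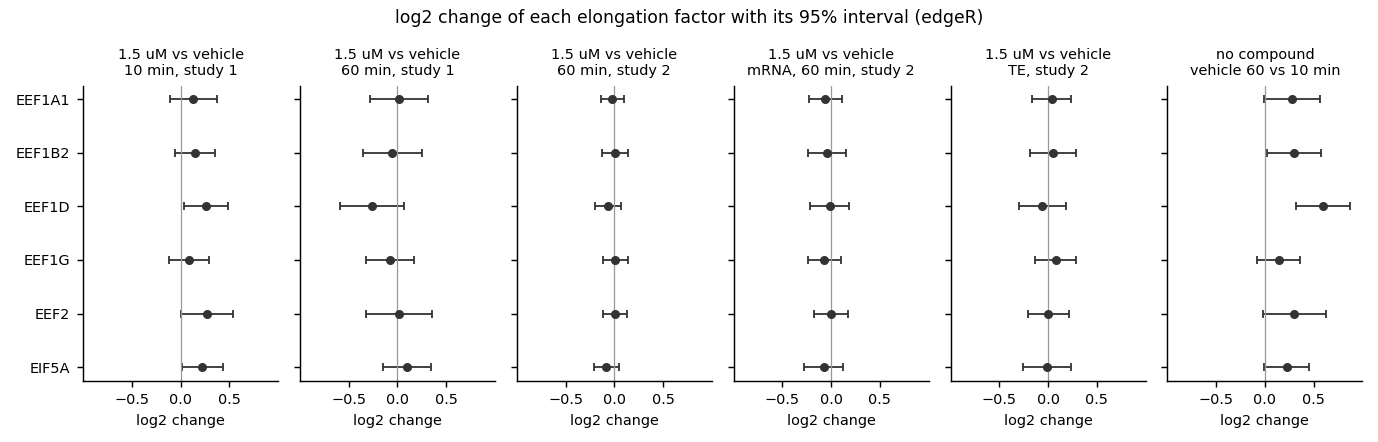
log2 change of each elongation factor (points) with its 95% interval (bars) from edgeR, in 6 comparisons on a shared axis: 1.5 μM against vehicle in ribo-seq after 10 min and 60 min (study 1, n = 3 a group) and after 60 min (study 2, n = 2), in mRNA-seq, in TE, and vehicle at 60 against 10 min. No point passed an FDR of 0.1, the intervals of study 2 ribo-seq are the narrowest, and EEF1D in vehicle cells over time (0.60) lies farthest from 0.

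Study 2 repeated 1.5 μM against vehicle after 60 min. EEF1A1 read 8715 and 8597 in vehicle and 8672 and 8388 at 1.5 μM, and EEF2 1542 and 1499 against 1532 and 1517. EEF1D (562 and 584 against 544 and 548) and EIF5A (1578 and 1554 against 1470.2 and 1487) were below both vehicle libraries, and the other 4 overlapped. With 2 libraries a group, 15.7% of transcripts were below and 14.3% above both vehicle libraries.

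The log2 changes of the footprints lay between −0.08 (EIF5A, 95% interval −0.21 to 0.05) and 0.01 (EEF1G, −0.12 to 0.14). No interval reached beyond 0.21 in size. Those of the mRNA lay between −0.08 and −0.00, with EIF5A at −0.08 (−0.28 to 0.12). Those of TE lay between −0.06 (EEF1D, −0.30 to 0.18) and 0.08 (EEF1G, −0.13 to 0.28). None of the 6 was called in ribo-seq, mRNA-seq or TE. edgeR called 0.115% of transcripts in ribo-seq (13), 0.0% in mRNA-seq (228 with an unadjusted p under 0.05, 1 called by DESeq2) and 0.0339% in TE (4).

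PF-06446846 stalls ribosomes early in the CDS of sensitive genes, so the share of footprints in codons 2 to 50 was compared. In EEF2 it was 3.80% ± 0.340 (SD, n = 3) in vehicle and 5.99% ± 0.221 (n = 3) at 1.5 μM after 10 min. In EEF1B2 it was 12.6% to 15.8% in vehicle and 17.7% to 19.9% at 1.5 μM, and in EIF5A 23.4% ± 0.712 and 26.5% ± 0.742. In these 3 genes every treated library was above every vehicle library, while EEF1D lay below (9.20% ± 2.00 and 7.17% ± 0.493). Codons 35 to 41 of EEF1D had few reads of either assay and so added little to its share. Their mean density was 0.0403 to 0.356 in mRNA-seq and at most 0.140 in vehicle footprints. The reason was not tested. Without vehicle replicate 2 the number above was 5, where 26.8% of transcripts were above. The background held 8022 transcripts of at least 200 codons, and so left out EIF5A with its 155. Of these transcripts 19.6% were above and 3.47% below in this comparison. Their median share was 5.49% in vehicle and 6.42% at 1.5 μM.

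After 60 min in study 1, EEF2 alone was above every vehicle library (4.83% ± 0.475 and 5.90% ± 0.599), against 5.63% of transcripts above and 3.96% below. Without 1.5 μM replicate 1 a total of 2 genes were above, and 11.8% of transcripts. Read in pairs, EEF2 and EEF1B2 (16.3% ± 0.642 and 18.1% ± 2.16) were higher in 3 of 3, against 14.2% of transcripts. In study 2 EEF2 was not, and read 3.97% ± 0.0551 and 3.93% ± 0.0240 (n = 2). There EEF1D was above (11.8% ± 0.884 and 13.6% ± 0.985) and EIF5A below (26.0% ± 0.193 and 22.4% ± 1.08), where 18.7% of transcripts were above and 13.8% below both vehicle libraries. The number above was 4 without 1.5 μM replicate 4, where 35.4% of transcripts were above, and 3 without vehicle replicate 5, where 41.7% were. EEF1B2 (16.1% ± 0.397 and 18.0% ± 2.65), EEF1D and EEF1G were higher in 2 of 2 pairs, against 27.3% of transcripts. Over these 18 tests the smallest adjusted p of the two-sided exact permutation test was 0.36. With 3 libraries a group it cannot go below 0.1 before adjustment.

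**Figure D5:**
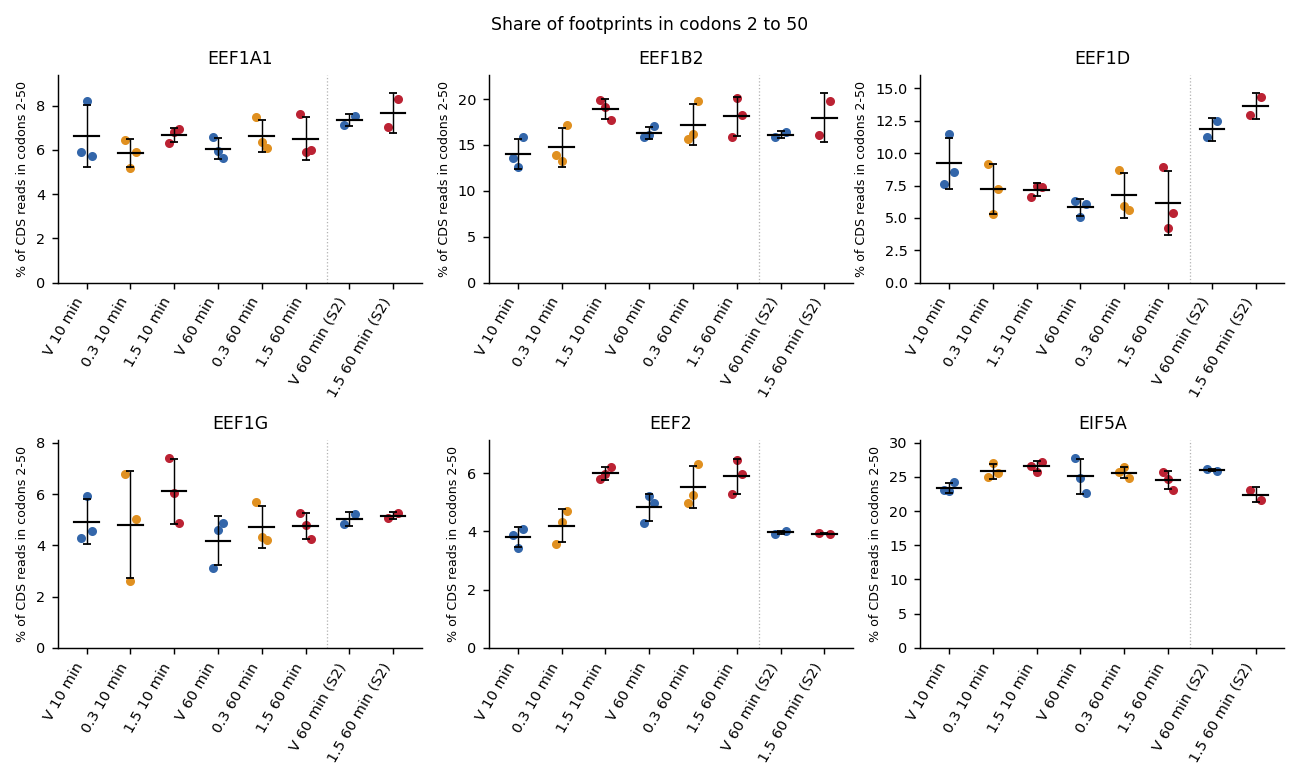
Share of each gene's CDS footprints in codons 2 to 50 (percent, linear axis from 0) in the 22 ribo-seq libraries, with points, colours, means and SD bars as in the plot of levels by library. After 10 min EEF2 sits at 3.80% in vehicle and 5.99% at 1.5 μM with no overlap, while in study 2 its groups sit at 3.97% and 3.93%.

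Dmax is the largest height of the treated above the vehicle curve when the share of reads up to each codon is added up along a CDS. A lag of the treated curve does not enter it. It was read as a Z-score among transcripts of like read number, that is Dmax over its root mean square in a bin of such transcripts, which is what the authors' published code computes. No member reached a Z-score of 2 in any comparison, a value passed by 3.56% of transcripts after 10 min, 2.72% after 60 min in study 1 and 2.27% in study 2. EEF1B2 had the highest of the group each time, at 0.827, 0.893 and 0.905, at codons 60, 77 and 93. As a distance from the bin mean in SD, the formula given in the study's methods, these were 0.0935, 0.341 and 0.360, again the highest of the group, and no member reached 2. In study 2 the treated curve of EEF2 rose at most 0.00134 above vehicle and lay at most 0.0125 below it. That of EIF5A lay up to 0.0366 below vehicle, at codon 51, and at most 0.00868 above it. Between single libraries the Dmax of EEF1B2 after 10 min was 0.0413 to 0.113 for treated against vehicle and 0.0108 to 0.0895 for vehicle against vehicle.

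The vehicle maxima were compared too. Over 54 tests the smallest adjusted p of the two-sided exact permutation test was 0.6, and this test is not independent of how the codons were picked. The maxima were chosen for high values in the same vehicle libraries, so a lower treated value can come from the choice alone. After 10 min 4 of the 18 codons were above and 2 below every vehicle library. After 60 min 1 was above and 2 below in study 1, and 2 above and 5 below in study 2. Codons without overlap made up 30.1%, 6.49% and 29.7% of the 2249 codons of these genes outside their first 10 and last 15, in the same comparisons. Codon 314 of EEF1G, with TTT in the P-site, lay below the vehicle range after 10 min (9.17 ± 2.28 in vehicle, 3.14 ± 0.746 at 1.5 μM, n = 3 each) and codon 394 of the same gene lay above it (4.01 ± 1.00 and 8.41 ± 1.36). Chosen on the 8 libraries of 1.5 μM, the list shared 13 of its 18 codons with that of vehicle. In study 2 the profiles of treated and vehicle libraries correlated at 0.857 to 0.946, a range that overlapped that of the replicates.

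The last codon before the stop held the tallest bar of EEF1B2, EEF1D, EEF1G and EEF2. In vehicle libraries its median density was 9.63 in EEF1D, 8.75 in EEF2, 7.72 in EEF1G and 5.91 in EEF1B2, against a median of 7.72 over 8022 transcripts. It was lower in EEF1A1 (3.79) and lowest in EIF5A (1.59). In EEF2 it was 10.0 ± 5.23 (n = 3) in vehicle and 1.62 ± 0.772 at 1.5 μM after 10 min. The median of all transcripts was 8.44 and 4.59 in those libraries. After 60 min in study 1 EEF2 read 4.36 ± 5.11 in vehicle, from 1.03 to 10.2 in single libraries, and 2.53 ± 1.48 at 1.5 μM (n = 3 each). In study 2 EEF2 read 11.1 ± 1.90 and 10.1 ± 2.79 (n = 2). This position was added after its values were seen and was not tested.

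Related genes were counted by fixed lists. None of the 6 other cytosolic elongation factors and partners tested (of 8 listed), 15 modifying enzymes (of 16), 5 mitochondrial elongation factors and 10 other TOP mRNAs (of 12) was called in any of the 11 comparisons. EEF1A2 and VARS1 were not found among the symbols of the first list, DOHH of the second, and EIF3F and EIF3H of the last. In the first list the 60 min changes of study 1 ran from −0.10 for EEFSEC, the factor that delivers selenocysteine, to 0.11 for EIF5AL1. In TE they ran from 0.06 for EIF5AL1 to 0.29 for EIF5A2.

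Among the modifying enzymes EEF1AKMT1 and EEF1AKMT4, methyltransferases of eEF1A, were the lowest and highest in both, at −0.33 and 0.16 in study 1 after 60 min and −0.38 and 0.27 in TE. Among mitochondrial factors GFM2 was lowest and GUF1 highest after 60 min (−0.16 and 0.03), and GFM1 and GFM2 in TE (−0.27 and 0.11). Among TOP mRNAs NPM1 and PABPC1 were lowest and highest after 60 min (−0.22 and 0.36), and NAP1L1 and PABPC1 in TE (−0.24 and 0.15). None of these passed the test.

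Of 75 cytosolic ribosomal proteins, 2 rose after 10 min at 1.5 μM: RPS28 by a log2 of 0.75 (edgeR FDR 0.0460) and RPL28 by 0.49 (FDR 0.0893), against 0.851% of all transcripts called. Some calls were lost when 1 library was left out, while the log2 changes stayed between 0.66 and 0.92 for RPS28 and between 0.39 and 0.57 for RPL28. RPS28 was not called without vehicle replicate 1 (edgeR FDR 0.206) or without 1.5 μM replicate 1 (0.262) or 2 (0.284). RPL28 was not called without any 1 of the libraries other than vehicle replicate 3 (edgeR FDR 0.122 to 0.383), and neither was called with all 18 libraries in 1 fit (0.76 and 0.49). The median change of the list was 0.12 against 0.01 over all transcripts, and 54 of 75 (72.0%) were above 0 against 50.8% of all transcripts. After 60 min none was called in study 1, where RPL41 (−0.31) and RPS20 (0.29) were the extremes. These counts cover the whole CDS. From reads after the stall site alone, the paper lists RPL27 among its sensitive genes in study 1 at this time. In study 2 RPL27 fell by 0.61 in ribo-seq (FDR 0.00120), and by 1.50 when codons after 50 were counted. In TE it had the lowest value (−0.61, FDR 0.159) and RPLP1 the highest (0.26), and none passed.

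The transcripts whose footprint level followed each factor most closely were listed over the 18 ribo-seq libraries of study 1, among 3199 named transcripts with a mean of at least 50 CPM. EEF1A1 was most like EIF4A1 (Pearson r = 0.976), TUBA1B (0.961) and PSMB3 (0.960). EEF2 was most like PYGB (0.969), ATP13A1 (0.963) and PTPRF (0.961), and EEF1D like PKM (0.955), RAB35 (0.914) and RPS18 (0.912). EIF5A was followed by its copy EIF5AL1 (0.991), RPL17-C18orf32 (0.972) and RPS12 (0.958). EEF1B2 was most like NOMO2 (0.896), PLIN2 (0.888) and NOTCH2 (0.870). EEF1G had the weakest neighbours, TM4SF5 (0.800), EWSR1 (0.748) and TMEM132A (0.742).

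Within the group EEF1B2 and EEF1D, the exchange subunits, had a correlation of 0.854, and EEF1A1 had 0.849 with EIF5A and 0.832 with EEF2. EEF1G had between 0.171 and 0.454 with the other members. EEF1B2 and EEF1D both had their highest level in replicate 2 of 0.3 μM after 10 min (1377 and 868). The median correlation of a member was 0.0602 to 0.150 with all 3199 transcripts and 0.316 to 0.532 with 74 ribosomal proteins. The neighbours listed above were picked as the highest of these 3199. These values describe 18 libraries of 1 study, whose depths differ, and the 6 groups among them differ in time and dose, so they are not tests.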

How the data were processed

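The authors trimmed adapters, discarded reads from rRNA, used Bowtie to align what remained to the main isoform of each expressed gene and assigned each read to the codon in the P-site, keeping reads with a few equal best alignments and dropping those with more. The submitters' processing notes name Bowtie 1.1.2, kallisto 0.42.5, DESeq and GRCh38. The deposited values are raw counts of reads per codon for each library, without normalization, and no per-sample column was left out.

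Counts were summed over each CDS. Levels and TE were scaled by the library's CDS reads (6414227 to 22224137) times edgeR's TMM factor, taken over the 22 ribo-seq libraries for footprint levels and over the 8 of study 2 for mRNA levels and TE. Shares of reads use no factor. Depth was such that counting error is small for these genes (3624 to 209987 reads each in vehicle footprints) and the spread between replicates sets the precision. Groups were compared with edgeR 4.0.16 (filterByExpr, TMM, quasi-likelihood test, only the compared groups in a fit, Benjamini-Hochberg FDR of 0.1) in R 4.3.3 across all transcripts. TE change was an assay by treatment interaction. Exact permutation tests of single values were two-sided (Python 3.11.15). Dmax Z-scores (value over the root mean square, or distance from the mean in SD) used bins of 300 transcripts with at least 10 reads. The share in codons 2 to 50 used transcripts of at least 200 codons and 20 reads as background, which leaves out EIF5A. Symbols, CDS bases and positions come from GENCODE 44 on GRCh38, and the modified residues were located by their flanking motifs.

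Alternatives were DESeq2 1.42.0, its size factors, all transcripts with a read, an FDR of 0.05, codons after 50, all 18 study 1 libraries in 1 fit, the replicate number as a block and leaving out each library. The edgeR step was tested on simulated data with 200 transcripts changed by a log2 of 1. For 1.5 μM at 10 min (11045 transcripts) it recovered 87.5%, with 10.7% of calls false, and for TE (11799 transcripts) 61.5%, with 15.2% false. For the interaction with time it recovered 55.5% (13.3% false), and the highest share of false calls was 17.2%, in mRNA-seq. The changes of the members were smaller than a log2 of 1, so this does not give the power to call them.

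The labels give replicate numbers but no shared culture. The numbers were taken to pair libraries where every pair of deviations from group means correlated above 0.1 over 10168 transcripts. This held for 1.5 μM and vehicle at 60 min in study 1 (0.367 to 0.504), for 0.3 μM and vehicle at both times and for 0.3 μM across times. It did not hold for 1.5 μM at 10 min (0.0736 to 0.206), nor for vehicle (−0.0444 to 0.464) or 1.5 μM across times. The pairing is an inference from the counts that did not link every group, so a shared source is not shown. Study 2 has 2 libraries a group, so both pairs of an assay give 1 and the same correlation. It was 0.223 in ribo-seq, which passes the rule, and 0.0803 in mRNA-seq, which does not. Levels of study 2 were not counted in pairs.

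The members and gene lists were chosen with earlier results of these data known. All 6 members are named throughout. Of each list, the genes past the FDR and the highest and lowest log2 change in the 60 min study 1 and TE comparisons (at least 50 reads on average) are named, and the 3 most similar named transcripts of each member.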

Additional observations from a re-analysis of the deposited data

Results flagged for a closer look

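Some effects pointed in opposite directions in the comparisons, with every treated library on one side of every vehicle library in each. The differences between these comparisons were not tested. Over 9706 transcripts, 11.0% of levels were above every vehicle library after 10 min and 15.7% below in study 2. For the codon 2 to 50 share of 8022 transcripts, 19.6% were above and 3.47% below after 10 min. These were 18.7% and 13.8% in study 2. Of these genes' codons 30.1%, 6.49% and 29.7% had no overlap after 10 min, after 60 min in study 1 and in study 2. How many transcripts changed side was not counted. Study and time differ together between 10 min in study 1 and 60 min in study 2. In the 60 min libraries of study 1, where the groups overlapped, the codon 2 to 50 share differed by 0.327 percentage points for EEF1D and by −0.555 for EIF5A, and the level by −0.26 and 0.10 on the log2 scale. At 1.5 μM the codon 2 to 50 share of EEF1D was lower by 2.03 percentage points after 10 min (difference −2.03) and higher by 1.78 after 60 min in study 2. That of EIF5A was higher by 3.11 percentage points after 10 min and differed by −3.63 in study 2. The level of EEF1D differed by 0.26 on the log2 scale after 10 min and by −0.07 in study 2, and that of EIF5A by 0.22 and −0.08. The density at codon 69 of EEF1A1 differed by 2.28 after 10 min and by −0.21 in study 2. The density at codon 56 of EEF1B2 differed by 3.74 after 60 min in study 1 and by −0.62 after 60 min in study 2, at the same time and dose. Both codons were chosen for high values in these vehicle libraries.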

How the results depend on the processing

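The 5 ratios of neighbouring levels kept their direction over all vehicle libraries, except EEF1G over EEF1B2. That log2 ratio (0.0411) was −0.0923 in the 60 min vehicle libraries of study 1 alone and 0.215 in those of study 2. With 1 vehicle library left out it ran from 0.0139 to 0.0918, and without 60 min vehicle replicate 2 it passed the exact permutation test (adjusted p = 0.0469). In study 2 alone the log2 ratio of EEF1A1 over EIF5A was 2.47 (2.19 over all libraries) and that of EIF5A over EEF2 was 0.0427 (0.376). With codons after 50 the TE of EEF1G over that of EEF1B2 was 0.566 in place of 0.60.

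The number of genes with a codon 2 to 50 share above every vehicle library (3 after 10 min, 1 after 60 min in study 1 and 1 in study 2) became 2 in both 60 min comparisons with codons 2 to 40. With 1 library left out it ran from 3 to 5, from 1 to 2 and from 1 to 4 in the same order, with 5 without vehicle replicate 2, 2 without 1.5 μM replicate 1 and 4 without 1.5 μM replicate 4. Counted as higher within every replicate pair (the replicate block), it was 2 after 60 min in study 1 and 3 in study 2, against 14.2% and 27.3% of transcripts. Scaling by plain CDS totals, an alternative chosen after seeing the data, brought members with a level above every library of the other group from 5 to 4 at 1.5 μM after 10 min and from 4 to 3 in vehicle over time. Members higher in every pair went from 2 to 0 at 0.3 μM after 10 min and from 2 to 0 at 0.3 μM over time.

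Members called by edgeR at 1.5 μM after 10 min ran from 0 to 3 with 1 library left out, the 3 coming without vehicle replicate 3. Over time in vehicle cells, DESeq2 called 1 member, EEF1D. The replicate block, which holds by the pairing check for 1.5 μM after 60 min in study 1, changed no call among the members (0 called). It moved the calls over all transcripts there from 8 to 51, after 10 min from 94 to 1196 and in study 2 from 13 to 129. Where the numbers do not pair the libraries, as after 10 min, this count says nothing of a shared source.

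Of 864 log2 changes of members under an alternative, 55 changed sign, each with intervals that include 0 under both settings, 4 came to pass the threshold and 0 ceased to. Leaving out a study 2 library leaves 1 in a group, whose spread was then taken to equal that of the other group. Calls over all transcripts moved more. At 1.5 μM after 10 min (94) they were 519 with DESeq2, 195 with codons after 50, 30 in the 18-library fit and 9 to 1656 with 1 library left out. After 60 min in study 1 (8) they were 17, 19, 14 and 0 to 8 in that order. In study 2 (13) they were 29 with codons after 50 and 10 to 129 with 1 library left out, and for TE (4) 11 with DESeq2, 15 with codons after 50, 13 with the block and 1 to 128 with 1 library left out. Over time they were 43 with DESeq2 and 7 with the block in vehicle (0), 107 with the block and 5 with DESeq2 at 0.3 μM (1), and 13 with DESeq2 and up to 23 with 1 library left out at 1.5 μM (2). The other alternatives kept each count of called members at 0. The cause of these differences was not tested. With 2 or 3 libraries a group, exact permutation p-values cannot go below 0.333 or 0.1.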
